A study of Mus musculus with 8 samples.

Results

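The circadian clock genes described here are Per1, Per2, Per3, Cry1, Cry2, Arntl, Clock, Dbp, Nr1d1 and Nr1d2, taken by symbol as 10 of the 21878 genes in the deposited expression table. RNA was sequenced from wild-type C57BL/6 mouse brain astrocytes isolated at postnatal day 0. Cells given the IL-1α/TNFα/C1q cocktail, a pair of inflammatory cytokines with a complement component, were set against cells given no treatment. According to the design text the cocktail served to make the astrocytes reactive and positive for C3d, a fragment of complement C3. The treatment labels of 3 cocktail libraries write C1q with another digit, and the libraries were grouped by their titles. Each group had 4 libraries, and whether these came from separate cultures or animals is not stated, so the p-values measure the spread between libraries, which may be technical. The labels used here give neither the length of the treatment nor the clock hour of harvest. With a single harvest, a change in the mean level of a rhythmic gene and a shift of its phase cannot be told apart.

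The clock is a transcriptional feedback loop. CLOCK and BMAL1, the product of Arntl, bind E-box sequences as a pair and switch on the Per and Cry genes, whose proteins return to the nucleus and repress that pair. The same pair drives Nr1d1 and Nr1d2, which encode the heme-binding receptors REV-ERBα and REV-ERBβ. These repress Arntl through ROR elements, at which the ROR receptors activate. DBP, another E-box target, activates genes through D-box sequences, where NFIL3 represses. Astrocytes carry such a clock of their own, and those of the suprachiasmatic nucleus can sustain daily rhythms in behaviour.

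The elements named above are shown here because they define the arms of the loop by which the results are ordered. RefSeq promoter windows of GRCm38.p6 ran from 250 bases before to 50 bases after a transcription start. They were found by symbol for 9 of the 10 genes, in 13 windows. No window was found for Per2, which was therefore not searched. Both strands were searched for the E-box CACGTG, the noncanonical E-box CACGTT, the D-box TTATGTAA or TTACGTAA, the ROR element, which is AANT followed by AGGTCA or GGGTCA, and the cAMP response element TGACGTCA. At least one of them was present for 6 of these genes, and no 2 matches overlapped. Clock, Dbp and Nr1d2 had a window but no match in it. Among all 32851 windows of that length, 7.15% held the E-box, 4.68% the noncanonical E-box, 1.06% a D-box, 0.435% the ROR element and 1.79% the cAMP response element. Capitals mark the matches, each stretch is printed 5′ to 3′ on the strand of the gene, and AACGTG is CACGTT read from the opposite strand.
Per1, E-box, chr11:69098736-69098835, plus strand: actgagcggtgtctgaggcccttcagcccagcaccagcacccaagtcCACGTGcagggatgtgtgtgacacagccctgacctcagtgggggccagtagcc
Per3, a pair of D-boxes, chr4:151044794-151044893, minus strand: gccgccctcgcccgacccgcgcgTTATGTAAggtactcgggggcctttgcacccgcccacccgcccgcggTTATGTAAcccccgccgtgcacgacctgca
Cry1, noncanonical E-box and E-box, chr10:85185072-85185171, minus strand: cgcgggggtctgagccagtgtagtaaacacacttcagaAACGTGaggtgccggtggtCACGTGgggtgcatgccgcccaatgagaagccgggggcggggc
Cry2, noncanonical E-box, chr2:92434183-92434282, minus strand: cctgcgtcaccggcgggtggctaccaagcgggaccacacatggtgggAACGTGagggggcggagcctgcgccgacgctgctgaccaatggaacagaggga
Nr1d1, noncanonical E-box, chr11:98775378-98775477, minus strand: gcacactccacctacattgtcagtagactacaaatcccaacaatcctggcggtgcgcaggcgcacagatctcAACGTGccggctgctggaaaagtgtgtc
Arntl, ROR element just after one of its annotated starts, chr7:113207528-113207557, plus strand: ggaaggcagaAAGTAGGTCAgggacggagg
The Per1 and Arntl stretches belong to transcription starts that lie inside the gene spans given with their values, and each of these genes had more than one window. A match is a description of the letters in these windows, and elements farther from a start were not searched.

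Values are FPKM, fragments scaled by gene length and by the total of the library, which was 19195898 to 20640490 fragments. Changes were tested with limma on log2(FPKM + 1) over the 11845 genes that reached 1 FPKM in 4 or more libraries, and a gene was called at an adjusted p under 0.05. The labelled cell type and the other cells a culture can hold were checked by marker lists. Their counts are to be read against all tested genes, of which 26.6% were called higher and 41.1% lower. The 8 astrocyte markers, such as Gfap, Aqp4 and Slc1a3, summed to 845 to 872 FPKM in cocktail and 1051 to 1187 FPKM in untreated libraries, with 6 lower and 2 higher. Of 7 tested microglial markers 5 were higher and 1 lower, and the sum of 12 was 41.5 and 39.7 FPKM in cocktail libraries 1 and 2, 61.3 and 76.8 FPKM in cocktail libraries 3 and 4, and 44.5 to 46.0 FPKM in untreated libraries. Neuronal, oligodendrocyte, mural, ependymal and endothelial sums were lower in every cocktail library than in any untreated one. The 8 neuronal markers summed to 52.4 to 59.6 FPKM in cocktail and 140.1 to 158 FPKM in untreated libraries, and 8 of the oligodendrocyte lineage to 79.4 to 84.6 FPKM in cocktail and 142 to 151 FPKM in untreated libraries. The 6 mural markers summed to 134 to 151 FPKM in cocktail and 569 to 641 FPKM in untreated libraries, and 6 ependymal markers to 78.3 to 90.9 FPKM in cocktail and 145 to 161 FPKM in untreated libraries. Those of 6 endothelial markers were 1.38 to 1.79 FPKM in cocktail and 4.81 to 5.34 FPKM in untreated libraries. Of the tested markers 2 of 4 neuronal, 2 of 4 oligodendrocyte, 3 of 4 mural, 4 of 4 ependymal and 1 of 1 endothelial were called lower, and 1 neuronal and 1 oligodendrocyte marker higher. In untreated libraries most of each of these sums came from a single gene, so a lower sum is not a fall of the whole list. In the same order, mean FPKM in cocktail and untreated cells was 38.8 and 125 for Stmn2 and 74.8 and 139 for Olig1. It was 111 and 581 for Acta2, 70.9 and 116 for Foxj1, and 0.616 and 3.99 for Kdr. For 6 fibroblast markers the sums were 76.7 to 102 FPKM in cocktail and 95.7 to 117 FPKM in untreated libraries, with 3 of 5 tested markers higher and 2 lower. Pdgfra, called higher, is counted in both the oligodendrocyte and the fibroblast list. Kdr, Rgs5 and Ccdc153 were tested only through their untreated libraries, as every cocktail library was under 1 FPKM. Lum was tested only through its cocktail libraries, as every untreated library was under 1 FPKM. Mog and Cldn5 were at 0 in every library, and Mag, Rbfox3, Kcnj8, Abcc9, Fap and Tmem212 stayed under 0.1 FPKM. In such bulk samples fewer cells of a type, less RNA per cell and a change of the single marker genes cannot be told apart. The part of these shifts in the clock gene results was not tested.

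Of the 10 clock genes 9 fell in cocktail libraries and none was called higher, while Clock was not called. Each of the 9 had its 4 cocktail libraries below its 4 untreated libraries. Mean FPKM fell by 15.4% for Per2, the least, and fell by 39.8% for Dbp, the most, so that no clock gene reached 2-fold. All 10 genes passed the filter on low values. In the same test 41.1% of all tested genes were called lower, 26.6% were called higher and 67.7% were called in either direction. Groups that did not overlap were found for 62.7% of all tested genes, with every cocktail library the lower for 38.5%, and 8.64% were called with a change of at least 2-fold on the log2(FPKM + 1) scale. The median log2 change was -0.37 over the clock genes and -0.05 over all tested genes. The same counts came from unadjusted p-values, with 9 lower and 0 higher at p under 0.05, and from limma voom on recovered fragments. The clock genes had between 268 (Cry1) and 2070 (Clock) fragments in a library. Without cocktail libraries 1 and 2, and likewise without 3 and 4, the same 9 clock genes were called lower.

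**Figure D1:**
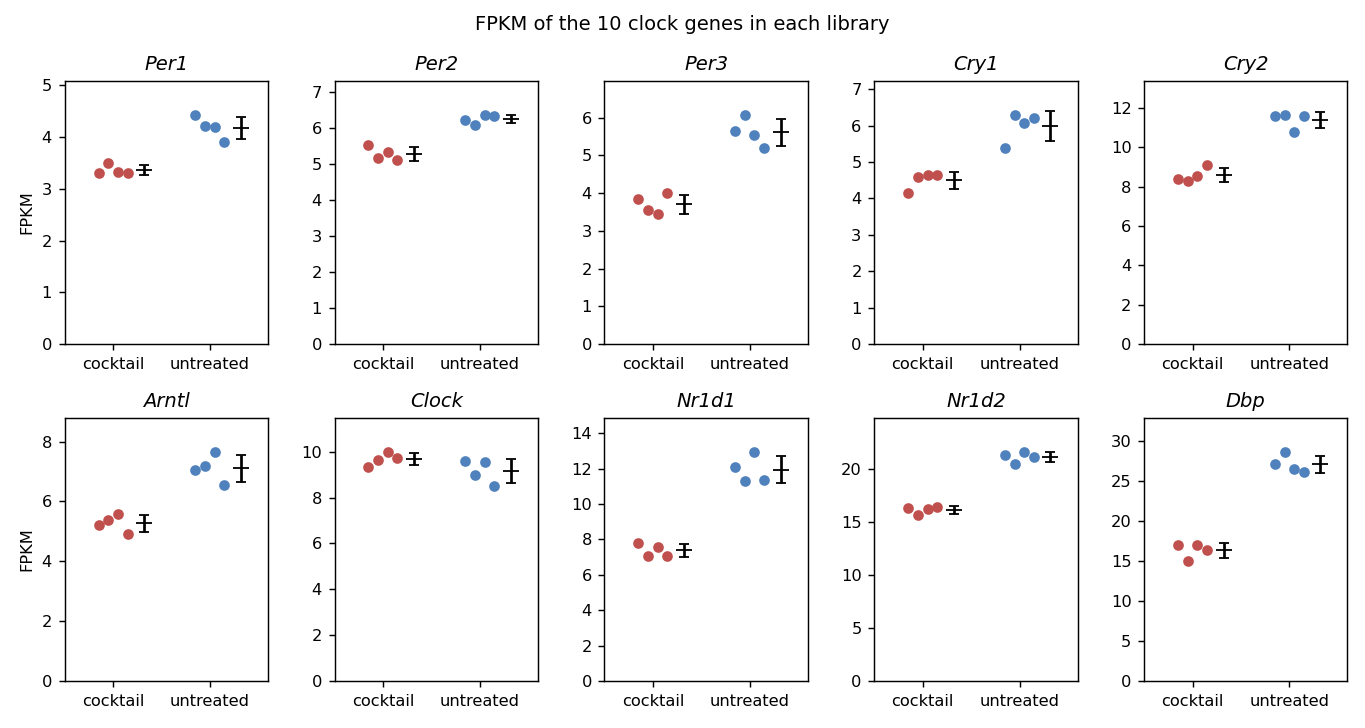
FPKM of each clock gene in the 4 cocktail libraries (red, left) and the 4 untreated libraries (blue, right), one panel per gene with its own axis from 0. Black marks are the mean and SD of the 4 libraries. In the Clock panel the groups overlap, and in the other 9 panels they do not.

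Dbp, the D-box activator, had the highest mean FPKM of the 10 in both groups, though below Nr1d2 in cocktail libraries 2 and 4, and had the largest log2 change among them. It had 17.0, 14.9, 17.0 and 16.4 FPKM in cocktail libraries 1 to 4, against 27.1, 28.6, 26.4 and 26.2 FPKM in untreated libraries 1 to 4. Every untreated library lay well above the highest cocktail library. Its mean fell by 39.8%, with 16.3 ± 0.956 FPKM in cocktail and 27.1 ± 1.10 FPKM in untreated cells (SD, n = 4 each). The log2 change was -0.70 ± 0.044 (SE; limma, adjusted p = 4.4e-08). Dbp lies on chromosome 7 from 45705100 to 45710203 of GRCm38, and 539 of its 2993 annotated exonic bases are shared with Sphk2 on the opposite strand. Sphk2, a sphingosine kinase gene, rose to 10.2 ± 0.484 FPKM in cocktail cells, against 8.19 ± 0.197 FPKM in untreated cells (SD, n = 4 each; limma, adjusted p = 6.6e-05). Whether the counting used strand is not given in the sources used here, so fragments of such shared bases could have gone to either gene.

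The other D-box factors did not all go the way of Dbp. Tef, a relative of DBP that activates at the same element, fell to 20.1 ± 0.794 FPKM in cocktail cells, against 24.6 ± 0.375 FPKM in untreated cells (SD, n = 4 each; limma, adjusted p = 1.1e-05). Nfil3, the repressor at the D-box, had 7.52, 7.15, 6.78 and 7.32 FPKM in cocktail libraries 1 to 4 and 3.65, 4.21, 4.02 and 3.70 FPKM in untreated libraries 1 to 4. It was higher in each cocktail library than in any untreated one, with a log2 change of 0.74 ± 0.051 (SE; limma, adjusted p = 8.4e-08). Within a library, where depth and scaling cancel, the FPKM of Dbp was 2.09 to 2.50 times that of Nfil3 in cocktail libraries and 6.58 to 7.43 times that of Nfil3 in untreated libraries. The ratio of Dbp to Tef was 0.812 ± 0.0535 in cocktail and 1.10 ± 0.0295 in untreated libraries (SD, n = 4 each). Hlf, the remaining activator of this family, did not pass the filter and lay between 0.470 and 0.745 FPKM in cocktail and between 0.392 and 0.942 FPKM in untreated libraries.

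Both REV-ERB genes fell. Nr1d1 had 7.81, 7.06, 7.58 and 7.04 FPKM in cocktail libraries 1 to 4, against 12.1, 11.3, 12.9 and 11.3 FPKM in untreated libraries 1 to 4. Nr1d2 had 16.3, 15.6, 16.2 and 16.4 FPKM in cocktail libraries 1 to 4, against 21.3, 20.4, 21.6 and 21.1 FPKM in untreated libraries 1 to 4. In neither gene did the groups overlap, and in untreated cells library 3 was the highest for both. The mean of Nr1d1 fell by 38.2% and its log2 change was -0.63 ± 0.050 (SE; limma, adjusted p = 3.7e-07). That of Nr1d2 fell by 23.5%, with a log2 change of -0.37 ± 0.031 (SE; limma, adjusted p = 6.4e-07). The ratio of Nr1d1 to Nr1d2 within a library was 0.429 to 0.479 in cocktail and 0.538 to 0.599 in untreated libraries, which do not overlap. Nr1d1 lies on chromosome 11 from 98767932 to 98775377 and Nr1d2 on chromosome 14 from 18204056 to 18239106. At its end Nr1d1 shares 263 exonic bases with Thra, the thyroid hormone receptor gene on the opposite strand. Thra fell to 50.2 ± 1.62 FPKM in cocktail cells, against 63.7 ± 3.73 FPKM in untreated cells (SD, n = 4 each; limma, adjusted p = 1.5e-05).

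The ROR receptors bind the same elements as REV-ERB and activate there. Rora, encoding RORα, fell to 1.95 ± 0.0912 FPKM in cocktail cells, against 2.51 ± 0.0301 FPKM in untreated cells (SD, n = 4 each; limma, adjusted p = 0.00056). Quantile normalization ended that call (limma, adjusted p = 0.09). Rorb did not pass the filter, at 0.219 to 0.325 FPKM in cocktail and 0.507 to 0.683 FPKM in untreated libraries.

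**Figure D2:**
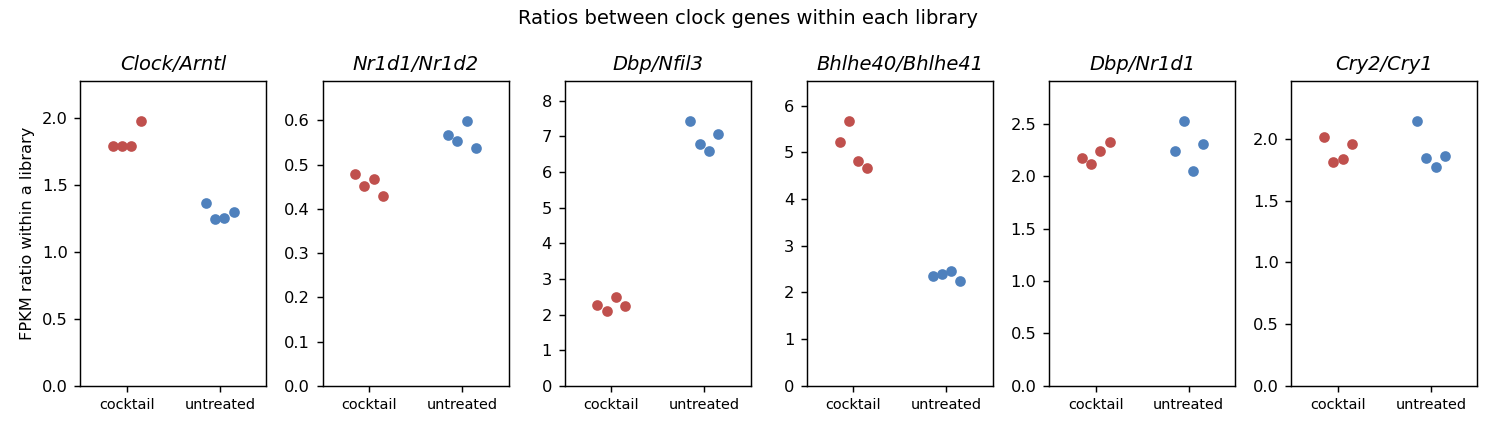
Ratio of the FPKM of 2 genes within each library, for 6 pairs, with cocktail libraries in red at left and untreated libraries in blue at right; each axis starts at 0. Clock over Arntl and Bhlhe40 over Bhlhe41 are higher in every cocktail library than in any untreated one, Nr1d1 over Nr1d2 and Dbp over Nfil3 are lower, and Dbp over Nr1d1 and Cry2 over Cry1 overlap between the groups.

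Of the activating pair, Arntl fell and Clock was not called. Arntl, which encodes BMAL1, had 5.22, 5.36, 5.58 and 4.91 FPKM in cocktail libraries 1 to 4, against 7.04, 7.19, 7.65 and 6.55 FPKM in untreated libraries 1 to 4. Its groups did not overlap, its mean fell by 25.8%, and the log2 change was -0.37 ± 0.052 (SE; limma, adjusted p = 5.1e-05). Arntl thus fell together with Nr1d1 and Nr1d2, the genes of its repressors. Clock, a histone acetyltransferase and partner of BMAL1, had 9.34, 9.62, 9.98 and 9.72 FPKM in cocktail libraries 1 to 4 and 9.61, 8.96, 9.56 and 8.48 FPKM in untreated libraries 1 to 4. Untreated libraries 1 and 3 lay within the cocktail range, and the log2 change was 0.07 with a 95% confidence interval from -0.03 to 0.17 (limma, adjusted p = 0.17). After median-ratio rescaling or quantile normalization Clock was called higher, at log2 changes of 0.12 in each (limma, adjusted p = 0.028). Without untreated library 4 alone its log2 change was 0.04 (limma, adjusted p = 0.43), and without cocktail libraries 3 and 4 it was 0.05 (limma, adjusted p = 0.49). Within a library Clock stood at 1.84 ± 0.0953 times the FPKM of Arntl in cocktail cells and at 1.29 ± 0.0551 times in untreated cells (SD, n = 4 each), and these ratios did not overlap. Arntl lies on chromosome 7 from 113178471 to 113314126 and Clock on chromosome 5 from 76209868 to 76305603.

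Among paralogs of the pair, Arntl2, which encodes BMAL2, rose to 1.91 ± 0.235 FPKM in cocktail cells, against 1.31 ± 0.0531 FPKM in untreated cells (SD, n = 4 each; limma, adjusted p = 0.00072). It had 101 to 145 fragments in cocktail and 83 to 86 fragments in untreated libraries, and its log2 change of 0.33 became 0.54 in voom, which adds no full FPKM to low values. Npas2, which can stand in for CLOCK, did not pass the filter at 0.345 to 0.540 FPKM in cocktail and 0.357 to 0.579 FPKM in untreated libraries.

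All 5 repressor genes of the Per and Cry families fell. Per3, the Per gene that mice can lose with the mildest effect on their rhythms, had 3.84, 3.55, 3.45 and 4.00 FPKM in cocktail libraries 1 to 4, against 5.65, 6.06, 5.53 and 5.20 FPKM in untreated libraries 1 to 4. Its mean fell by 33.9% and its log2 change was -0.49 ± 0.055 (SE; limma, adjusted p = 7.5e-06). The falls of Per1 and Per2, which encode the principal partners of the CRY proteins, were the smallest of the 9. Per1 had 3.31, 3.50, 3.32 and 3.32 FPKM in cocktail libraries 1 to 4, against 4.42, 4.21, 4.196 and 3.91 FPKM in untreated libraries 1 to 4. Per2 had 5.54, 5.16, 5.33 and 5.11 FPKM in cocktail libraries 1 to 4, against 6.22, 6.09, 6.35 and 6.32 FPKM in untreated libraries 1 to 4. Neither gene had overlapping groups, and the gap between the nearest libraries of the groups was narrow in both. Their log2 changes were -0.25 for Per1 (standard error 0.047; limma, adjusted p = 0.00053) and -0.21 for Per2 (standard error 0.040; limma, adjusted p = 0.00072). Under quantile normalization these became -0.13 and -0.13, still called lower (limma, adjusted p = 0.03 and 0.015). The ratio of Per2 to Per1 overlapped between the groups, while that of Per3 to Per1 was 1.01 to 1.21 in cocktail and 1.28 to 1.44 in untreated libraries. Per1 lies on chromosome 11 from 69095108 to 69109965, Per2 on chromosome 1 from 91415977 to 91459351 and Per3 on chromosome 4 from 150997018 to 151044707.

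Cry1 and Cry2, the cryptochrome repressors that block CLOCK and BMAL1 directly, fell by nearly the same share. Cry1 had 4.16, 4.58, 4.65 and 4.64 FPKM in cocktail libraries 1 to 4, against 5.40, 6.28, 6.08 and 6.20 FPKM in untreated libraries 1 to 4. Cry2 had 8.37, 8.29, 8.56 and 9.09 FPKM in cocktail libraries 1 to 4, against 11.6, 11.6, 10.8 and 11.6 FPKM in untreated libraries 1 to 4. The groups were apart in both genes. The mean of Cry1 fell by 24.8% (log2 change -0.34, standard error 0.054; limma, adjusted p = 0.00012) and that of Cry2 fell by 24.7% (log2 change -0.37, standard error 0.041; limma, adjusted p = 6.1e-06). The ratio of Cry2 to Cry1 was 1.91 ± 0.0963 in cocktail and 1.91 ± 0.165 in untreated libraries (SD, n = 4 each), with overlapping values. Cry1 lies on chromosome 10 from 85131700 to 85185054 and Cry2 on chromosome 2 from 92403646 to 92434085.

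The genes listed as other repressors at the E-box went in both directions. Bhlhe40, encoding DEC1, which competes with CLOCK and BMAL1 for E-boxes, had 29.3, 28.3, 27.9 and 29.0 FPKM in cocktail libraries 1 to 4, against 17.8, 18.2, 18.4 and 17.8 FPKM in untreated libraries 1 to 4. It was far higher in all cocktail libraries than in any untreated one, with a log2 change of 0.64 ± 0.029 (SE; limma, adjusted p = 2.4e-09). Its paralog Bhlhe41, encoding DEC2, fell to 5.65 ± 0.510 FPKM in cocktail cells, against 7.63 ± 0.199 FPKM in untreated cells (SD, n = 4 each; limma, adjusted p = 6.7e-05), and 1280 of its 6720 exonic bases are shared with Gm43909 on the opposite strand. The ratio of Bhlhe40 to Bhlhe41 was 4.68 to 5.68 in cocktail and 2.25 to 2.46 in untreated libraries. Timeless, which acts at the replication fork and binds PER and CRY proteins, fell to 0.656 ± 0.119 FPKM in cocktail cells, against 1.30 ± 0.135 FPKM in untreated cells (SD, n = 4 each; limma, adjusted p = 8.1e-05). It passed the filter only through the untreated group, as its cocktail libraries lay at 0.545 to 0.761 FPKM. Its log2 change of -0.47 became -0.996 in voom and -0.28 under quantile normalization. Ciart, a repressor of the CLOCK and BMAL1 pair, did not pass the filter at 0.712 to 0.940 FPKM in cocktail and 0.688 to 0.969 FPKM in untreated libraries.

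**Figure D3:**
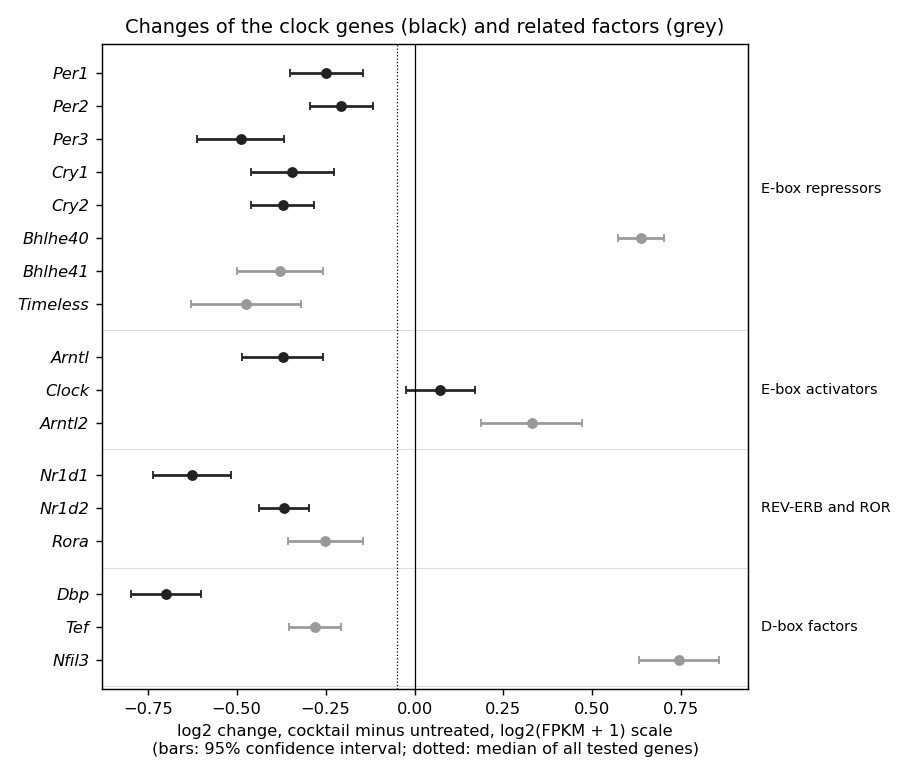
Log2 change, cocktail minus untreated on the log2(FPKM + 1) scale, with its 95% confidence interval from limma (4 libraries per group), for the 10 clock genes (black) and 7 related factors (grey), ordered by role. The clock genes other than Clock lie between -0.21 and -0.70, and Bhlhe40, Arntl2 and Nfil3 lie above 0. The dotted line is the median of all tested genes.

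The order of the levels, which FPKM allows since it is per length, also differed in places. In cocktail cells Dbp (16.3 FPKM) and Nr1d2 (16.1 FPKM) came first with overlapping libraries, followed by Clock, Cry2, Nr1d1, Per2, Arntl, Cry1, Per3 and Per1. In untreated cells the order was Dbp, Nr1d2, Nr1d1, Cry2, Clock, Arntl, Per2, Cry1, Per3 and Per1. Clock thus stood above Nr1d1 and Cry2 in cocktail cells and below both in untreated cells. Neighbours whose libraries overlapped were Per2 with Arntl and Per3 with Per1 in cocktail cells. In untreated cells they were Nr1d1 with Cry2, Per2 with Cry1, and Cry1 with Per3. The coefficient of variation over the 4 libraries of a group was 1.88% to 6.84% for these genes, and counting alone gives 2.26% to 5.87% at their fragment numbers.

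**Figure D4:**
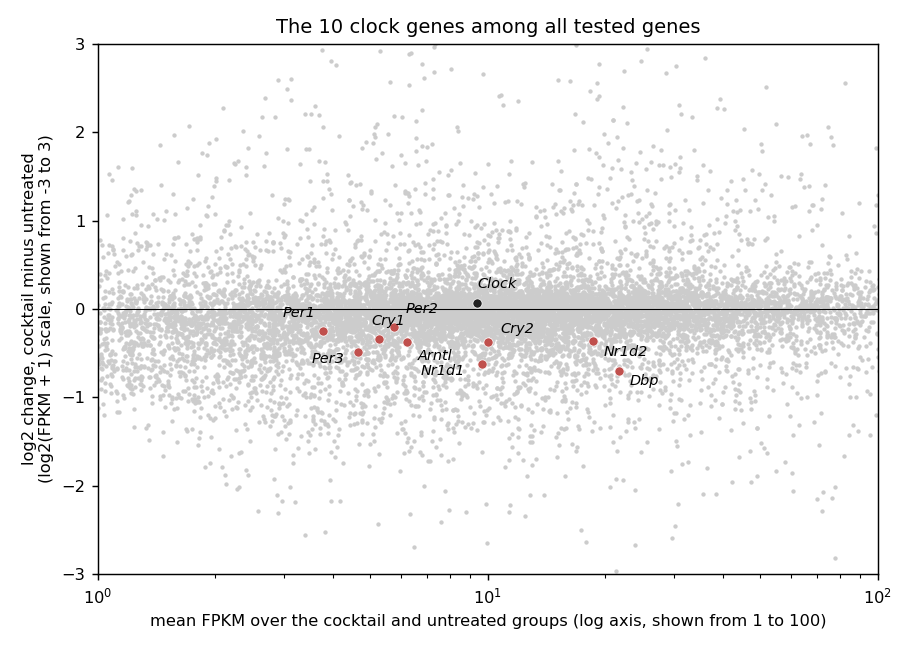
Log2 change of all tested genes within the axis limits (grey) against the mean of the cocktail and untreated group means in FPKM (log axis), with the 9 clock genes that fell in red and Clock in black. The clock genes lie at 3 to 22 FPKM, and those that fell sit inside the cloud of other genes.

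Among all tested genes, 9.2% had a lower log2 change than Dbp, 14.9% a lower one than Per3 and 31.4% a lower one than Per2. The genes whose log2(FPKM + 1) followed that of Dbp most closely over the 8 libraries were Rnf130, Cpxm1 and Rasl11a, with Pearson correlations of 0.9985, 0.9979 and 0.9976. As many as 81 genes reached 0.99 with Dbp. For Arntl they were Dip2c, Dgke and Kif1bp, at 0.9952, 0.9934 and 0.9904. These correlations hold the difference between the groups and the shared libraries, and are a description of these 8 libraries.

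Beyond the 10 clock genes, 52 further genes of the pathway were listed by role, of which 45 passed the filter. Of these 17 rose, 14 fell and 14 were not called, with a median log2 change of 0.02. Over all tested genes 26.6% were called higher and 41.1% lower, 67.7% in all, so the share called was near that of all tested genes, and the counts by role are to be read against the same shares. Those below the filter were Npas2, Ciart, Rorb, Hlf, Hif3a, Fmo2 and Avp. Timeless and Fbxl21 passed it only through the group with the higher values. Without cocktail libraries 3 and 4 the rises numbered 11.

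Enzymes that set the stability of the clock proteins were called in both directions. Of 10 kinase and phosphatase genes acting on PER proteins 3 rose and 2 fell. Csnk1d, the casein kinase 1δ gene, rose to 56.0 ± 0.897 FPKM in cocktail cells, against 49.99 ± 0.858 FPKM in untreated cells (SD, n = 4 each; limma, adjusted p = 0.00015). Gsk3b rose to 19.2 FPKM in cocktail cells, against 17.8 FPKM in untreated cells (limma, adjusted p = 0.011), a call lost without cocktail libraries 3 and 4 (limma, adjusted p = 0.097). Csnk1a1 fell to 74.7 FPKM in cocktail cells, against 85.2 FPKM in untreated cells (limma, adjusted p = 2.5e-05), and the phosphatase gene Ppp1cb to 57.0 FPKM in cocktail cells, against 63.7 FPKM in untreated cells (limma, adjusted p = 0.0001). Of the exonic bases of Ppp1cb 17.5% are shared with Gm43312 on the same strand.

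Of 8 genes of ubiquitin ligases and proteases 2 rose and 1 fell. Fbxl21, an F-box protein gene whose product binds CRY proteins, had 2.14, 2.47, 2.20 and 2.45 FPKM in cocktail libraries 1 to 4, against 0.678, 0.657, 0.633 and 0.616 FPKM in untreated libraries 1 to 4. Its mean was 3.58-fold higher, from 389 to 449 fragments in cocktail and 114 to 119 fragments in untreated libraries. Fbxl21 passed the filter only through the cocktail group, as every untreated library was under 1 FPKM. The log2 change was 1.01 ± 0.056 (SE; limma, adjusted p = 1.3e-08), and 1.83 in voom. Usp2, a deubiquitinase gene, fell to 6.30 ± 0.284 FPKM in cocktail cells, against 8.23 ± 0.553 FPKM in untreated cells (SD, n = 4 each; limma, adjusted p = 9.1e-05). Huwe1 rose to 32.3 FPKM in cocktail cells, against 30.2 FPKM in untreated cells (limma, adjusted p = 0.0066).

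Of 12 coactivator and corepressor genes 5 rose and 3 fell. Kat2b, encoding the acetyltransferase PCAF, fell to 16.8 ± 1.06 FPKM in cocktail cells, against 23.4 ± 0.281 FPKM in untreated cells (SD, n = 4 each; limma, adjusted p = 1.2e-06). Sirt1, a deacetylase gene, stood at 3.77 FPKM in cocktail and 4.31 FPKM in untreated cells (limma, adjusted p = 0.04). That call was lost in 11 alternatives, at adjusted p-values of 0.053 to 0.55 in limma. These left out cocktail library 1, 2 or 3, untreated library 1, 3 or 4, cocktail libraries 1 and 2 together, the filter on low values, or the 10 most abundant genes from the totals, or applied median-ratio rescaling or quantile normalization. Crebbp, the CBP coactivator gene, rose to 7.59 FPKM in cocktail cells, against 6.48 FPKM in untreated cells (limma, adjusted p = 0.0047). Kmt2a, a histone methyltransferase gene, stood at 12.5 FPKM in cocktail and 11.3 FPKM in untreated cells (limma, adjusted p = 0.023), a call lost under 5 alternatives. In limma its adjusted p was 0.059 without the first cocktail library, 0.062 without the fourth, 0.073 without the first untreated library and 0.052 without the third. It was 0.1 without cocktail libraries 3 and 4 together.

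Of 7 tested output genes under clock control in other tissues 3 rose and 4 fell, where 67.7% of all tested genes were called in either direction. Pdk4, a kinase gene of pyruvate metabolism, had 5.98, 6.14, 5.78 and 5.59 FPKM in cocktail libraries 1 to 4, against 12.1, 11.03, 11.4 and 11.8 FPKM in untreated libraries 1 to 4. Every cocktail library lay below every untreated one, and the log2 change was -0.87 ± 0.043 (SE; limma, adjusted p = 3.8e-09). Lonrf3, a RING finger protein gene, fell to 1.71 ± 0.175 FPKM in cocktail cells, against 3.61 ± 0.122 FPKM in untreated cells (SD, n = 4 each; limma, adjusted p = 1.8e-07). Por, the cytochrome P450 reductase gene, rose to 51.0 ± 1.08 FPKM in cocktail cells, against 38.3 ± 1.07 FPKM in untreated cells (SD, n = 4 each; limma, adjusted p = 1.4e-07). Nampt, the rate-limiting enzyme of NAD salvage, rose to 22.6 ± 1.23 FPKM in cocktail cells, against 19.1 ± 0.450 FPKM in untreated cells (SD, n = 4 each; limma, adjusted p = 0.00031).

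**Figure D5:**
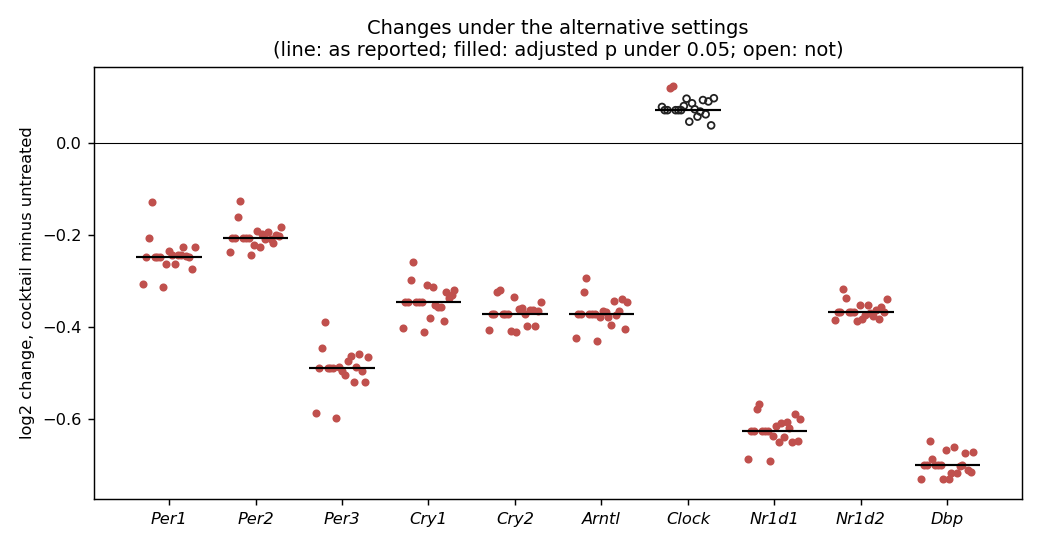
Log2 change of each clock gene under up to 20 alternative settings (points) and as reported (line); filled points have an adjusted p under 0.05. Apart from Clock, each gene is called lower under all settings that tested it, and Clock is called higher under median-ratio rescaling and quantile normalization.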

How the data were processed

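The authors deposited FPKM values for 21878 genes in 8 libraries made with a stranded mRNA kit, per the labels' protocols; DESeq and the build mm10 are named in the submitters' processing notes, and for the aligner and counter the sources used here give no name. Groups and replicate numbers came from the sample titles. Positions came from RefSeq's GRCm38.p6, where all 10 clock genes were matched by NCBI gene number, and exonic overlaps from GENCODE on GRCm38. The 10 clock genes and all lists were chosen with earlier results of these data known. limma 3.58.1 in R 4.3.3 was fitted to log2(FPKM + 1) with a mean-variance trend, on the 11845 genes that reached 1 FPKM in 4 or more libraries, two-sided, with Benjamini-Hochberg adjustment. The pseudocount understates the change of low genes. Whole fragments were recovered from FPKM ratios between libraries, to a relative tolerance of 1e-11, for 16557 genes, and used for depth, counting error (which covers counting only) and voom. For the other genes of the pathway, all tested genes of lists with up to 4 tested genes were named, and of longer lists the 2 largest called rises and falls. An item that this rule would name is not reported here. Closest genes were taken for the clock gene with the largest change and for Arntl, 3 each. Alternatives covered pseudocount, filters, scaling, trend, voom, the replicate block and left-out libraries.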

Additional observations from a re-analysis of the deposited data

Results flagged for a closer look

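Of 66 groups of 4 libraries checked for 33 genes, 4 held a library set apart from the other 3 by more than Dixon's critical value for the gap over the range, and chance flags about 1 in 20 groups. Per1 in cocktail library 2 was at 3.50 FPKM, against 3.31 to 3.32 in the other cocktail libraries, and without that library its log2 change was -0.26. Cry1 in cocktail library 1 was at 4.16 FPKM, against 4.58 to 4.65 in the others, and its log2 change without it was -0.31. Cry2 in untreated library 3 was at 10.8 FPKM, against 11.6 in each of the others, with a log2 change of -0.40 without it. Nampt in untreated library 1 was at 19.8 FPKM, against 18.9 to 19.0 in the others, with a log2 change of 0.24 without it. All 4 calls held without the library named.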

How the results depend on the processing

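Of 20 alternatives, the only one chosen after seeing the data took the 10 most abundant genes of any library out of the totals. Counted per gene and setting, 196 of 198 values of the clock genes kept their direction and side of the threshold. The exceptions were Clock, called higher under median-ratio rescaling and quantile normalization (clock members called higher: 1 in each, against 0). The same 9 genes were called lower under every alternative except the filter at a mean of 5 FPKM, which left out Per1 and Per3 and called 7. Leaving out 1 library at a time gave 9 lower and 0 higher each time, with log2 changes of -0.72 to -0.66 for Dbp and -0.23 to -0.19 for Per2. Other clock pathway genes called higher numbered 11 without cocktail libraries 3 and 4, against 17, and ranged from 13 to 16 when 1 library was left out. The cause was not tested. Over all genes 3151 were called higher and 4872 lower, 3945 and 4218 after median-ratio rescaling, and 2942 to 3059 and 4664 to 4765 without 1 library. Same-numbered libraries deviated together with correlations of -0.04 to 0.09, so the numbers were not taken as pairs. With a replicate block 3121 genes were called higher and 4829 lower, with 9 clock genes lower and 0 higher, and among the other pathway genes 16 higher and 14 lower. Among 23 other genes 18 values in all lost their call, of Sirt1 (11), Kmt2a (5), Rora (1) and Gsk3b (1), and no direction changed. Depth limits the genes with the fewest fragments. Arntl2 had 83 to 86 in untreated libraries, where counting alone gives a coefficient of variation of 10.88%. Timeless had 90 to 127 in cocktail libraries, where counting alone gives 9.67%.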

Other observations

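The deposited table carries its own label for circadian regulation of gene expression, used here after the values were seen. It was borne by 35 genes beyond those described above, of which 27 were tested. Of these 10 were called higher and 7 lower, with a median log2 change of -0.01. Over all tested genes 26.6% were called higher, 41.1% lower and 67.7% in either direction. The largest rises among the genes of this label were of Relb, Ahr and Nrip1. Relb, a subunit of NF-kB, was at 33.5 ± 0.782 FPKM in cocktail and 10.49 ± 0.334 FPKM in untreated cells (SD, n = 4 each; limma, adjusted p = 2.8e-12). Ahr, a receptor of the same bHLH-PAS class as CLOCK and BMAL1, was at 15.7 ± 0.335 FPKM in cocktail and 5.38 ± 0.346 FPKM in untreated cells (SD, n = 4 each; limma, adjusted p = 8.7e-11). Nrip1, a nuclear receptor cofactor gene, was at 9.15 ± 0.470 FPKM in cocktail and 3.09 ± 0.0547 FPKM in untreated cells (SD, n = 4 each; limma, adjusted p = 1.6e-10). Id2, an inhibitor of bHLH factors, fell to 90.7 ± 4.55 FPKM in cocktail cells, against 191.8 ± 2.41 FPKM in untreated cells (SD, n = 4 each; limma, adjusted p = 9.1e-11).

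The deposited circadian rhythm pathway label added 11 genes, of which 10 were tested, 2 higher and 6 lower. Over all tested genes 26.6% were called higher and 41.1% lower. Of its AMP-activated kinase subunit genes, Prkaa2 fell to 1.502 ± 0.0664 FPKM in cocktail cells, against 2.26 ± 0.126 FPKM in untreated cells (SD, n = 4 each; limma, adjusted p = 4e-05). Prkab2 fell to 2.02 ± 0.360 FPKM in cocktail cells, against 3.90 ± 0.113 FPKM in untreated cells (SD, n = 4 each; limma, adjusted p = 6.6e-06). Prkaa1, Prkab1 and Prkag2 fell less, at log2 changes of -0.10, -0.13 and -0.26 (limma, adjusted p = 0.039, 0.016 and 0.00053). Prkag1 was not called (limma, adjusted p = 0.2). Fmo2, an output gene below the filter and singled out after its values were seen, was at 0.0122 to 0.0697 FPKM in cocktail and 0.774 to 0.960 FPKM in untreated libraries.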
